A study of Homo sapiens with 12 samples.

Results

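Stretches of the K562 genome in which 3 to 7 binding intervals lay close together and both GATA1 and TAL1 were present are described here, by the order of their intervals and the distances between them. They were chosen by the positions and the list membership of the intervals. The intervals of the GATA1 and the TAL1 peak list were pooled, neighbours with a gap of at most 12.5 kb were joined, and a group of 3 to 7 intervals was kept if it held at least 1 interval of each list. An interval in both lists satisfies this by itself. The rule gave 1618 groups with 6323 intervals, out of 24654 distinct intervals on the nuclear chromosomes (25.6%).

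GATA1 is a zinc finger protein that binds GATA sequences and is required for red cell and megakaryocyte development. TAL1 is a basic helix-loop-helix protein that pairs with E proteins on E-box sequences, and LMO2 and LDB1 connect it to GATA1 on DNA. Enhancers of erythroid genes, the globin locus control regions among them, are often built of several such sites in a row, so that the order and spacing of sites with both proteins and sites with 1 of them is a feature of the regulatory region. K562 is an erythroleukemia cell line with erythroid traits.

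The study made 12 chromatin immunoprecipitation (ChIP-seq) libraries from control K562 cells and from K562 cells with GATA1 or TAL1 knocked down by lentiviral shRNA (short hairpin RNA), with antibodies against GATA1, TAL1, LDB1 or H3K27ac, or as input. The chromatin was cut with micrococcal nuclease to the size of 1 or 2 nucleosomes. The 2 lists used here, with 22769 GATA1 and 8918 TAL1 intervals, came from control cells, with 1 library for each factor. The labels do not say whether control cells received a vector, and the knockdown libraries were not analysed here.

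The lists give positions in build hg19 and nothing on peak height, so the depth behind an interval is unknown. No interval overlapped another in part, and a site found for both factors had the same start and end in each list. Each interval is therefore of 1 of 3 kinds, namely shared (in both lists), GATA1-only or TAL1-only. Absence from a list means that no peak is listed there, and does not show that the factor was absent. With 1 library for each factor and members chosen on these same lists, no p-value was computed. Shares carry an exact binomial 95% interval over groups, pairs or intervals as units. These intervals take neighbouring units as independent, which they need not be, and they do not cover variation between experiments.

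The groups held 2703 shared, 3114 GATA1-only and 506 TAL1-only intervals, or 42.7%, 49.2% and 8.0% of the members. In groups of 8 or more intervals that also held both factors, 34.7% of 1079 intervals were shared and 3.8% were TAL1-only. Among 9117 intervals standing alone the shared made up 24.7% and the TAL1-only 9.41%. The rule itself raises the share in the mid-size groups, because it leaves out the 602 groups of the same sizes with GATA1 and no TAL1. With these put back, 32.2% of 8391 intervals were shared. The groups took in 36% of the nuclear TAL1 list and 25.5% of the GATA1 list. The rule bears on this contrast too, since the 602 groups left out held 2068 GATA1 intervals and no TAL1 interval.

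Small groups prevailed. There were 785 groups of 3 intervals, 442 of 4, 205 of 5, 127 of 6 and 59 of 7. The median span from the first start to the last end was 8.23 kb for 3 intervals, 13.3 kb for 4, 16.0 kb for 5, 22.5 kb for 6 and 25.7 kb for 7. Spans of single groups ran from 0.635 to 51.5 kb, with an interquartile range of 6.90 to 17.6 kb. The intervals themselves covered a median of 10.2% of the span. The shared share of the intervals was 46.1% in groups of 3, 41.8% in groups of 4, 42.9% in groups of 5, 37.1% in groups of 6 and 37.8% in groups of 7. Just past the upper limit, the 39 groups of 8 intervals with both factors had 36.5%, close to the groups of 7. The rule raises these shares most in small groups. The groups with GATA1 and no TAL1 that it leaves out numbered 422 of 3 intervals, 119 of 4, 43 of 5, 15 of 6 and 3 of 7. With these put back, the share was not computed by size, so the fall with size is no result about the groups.

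Most groups combined shared and GATA1-only intervals. This was the make-up of 1101 of 1618 groups (68.0%, 65.7 to 70.3%). All 3 kinds were present in 237 groups (14.6%), shared with TAL1-only intervals in 90 and shared intervals alone in 75. The remaining 115 groups (7.11%, 5.90 to 8.47%) held GATA1-only and TAL1-only intervals with none shared. Each list thus had an interval within these groups, and no interval was in both lists. Groups of shared intervals alone were the most compact, at a median span of 5.04 kb and a median size of 3, while those with none shared spanned a median of 12.9 kb, also at a median size of 3. The sizes still differed, since 60 of the 75 groups of shared intervals alone held 3 intervals, and 65 of the 115 with none shared. Among groups of 3, those of shared intervals alone had a median span of 4.01 kb. The orders with none shared had medians of 6.66 to 12.1 kb. Among all 1618 groups, 697 held exactly 1 shared interval and 806 held 2 or more.

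Single groups show how these forms look on the chromosome. The group of shared intervals with the shortest span was at 17p13.3 (chromosome 17, 548890 to 549626). Its 3 shared intervals of 262, 99 and 212 bp were separated by 121 and 43 bp. At 6q23.3 (chromosome 6, 137058506 to 137059661) 4 shared intervals of 418, 296, 111 and 105 bp lay within 1156 bp, with gaps of 99, 41 and 86 bp. In both groups the intervals covered most of the span (77.7% and 80.5%), and without heights it cannot be told whether they are separate sites or pieces of 1 enriched stretch.

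Of the larger groups with the most shared intervals, those of 5 and 6 intervals were split by 1 long gap. The group at 4q24 (chromosome 4, 103263938 to 103277552) held 5 shared intervals, of which the first 3 lay within 2.91 kb and the last 2 followed after 10099 bp. At 1p32.1 (chromosome 1, 59347282 to 59365334) 6 shared intervals formed a set of 4 within 3.66 kb and, 11348 bp on, a set of 2 that were 2135 bp apart. The widest interval there, of 698 bp, was the last. Among groups of 7 none was shared throughout, and 2 held 6 shared intervals. The shorter of these, at 12q24.11 (chromosome 12, 109083016 to 109095798), had its 1 GATA1-only interval in the second place, 204 bp from the first. Its gaps were at most 4942 bp. These groups were picked for their shared count, so the gaps describe them and not the class.

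Of the 115 groups without a shared interval, 97 (84.3%, 76.4 to 90.5%) held exactly 1 TAL1-only interval, and it stood at an end of the group in 57 of these. At 21q22.2 (chromosome 21, 40792259 to 40802852) 4 GATA1-only intervals of 94 to 289 bp lay within 2.71 kb, and a TAL1-only interval of 593 bp followed after 7286 bp. At 3p21.31 (chromosome 3, 49840045 to 49844049) 3 GATA1-only intervals with gaps of 309 and 323 bp were followed by a TAL1-only interval 2587 bp away. At 1q23.3 (chromosome 1, 161456864 to 161475348) and 1q24.2 (chromosome 1, 167197204 to 167219093) the TAL1-only interval lay inside the group, 8432 and 1782 bp from its GATA1-only neighbours in the first and 6275 and 11746 bp in the second. The group at 17q25.3 (chromosome 17, 79790902 to 79791794) was different, with 2 TAL1-only intervals 75 bp apart and a GATA1-only interval 299 bp on, all within 893 bp.

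**Figure D1:**
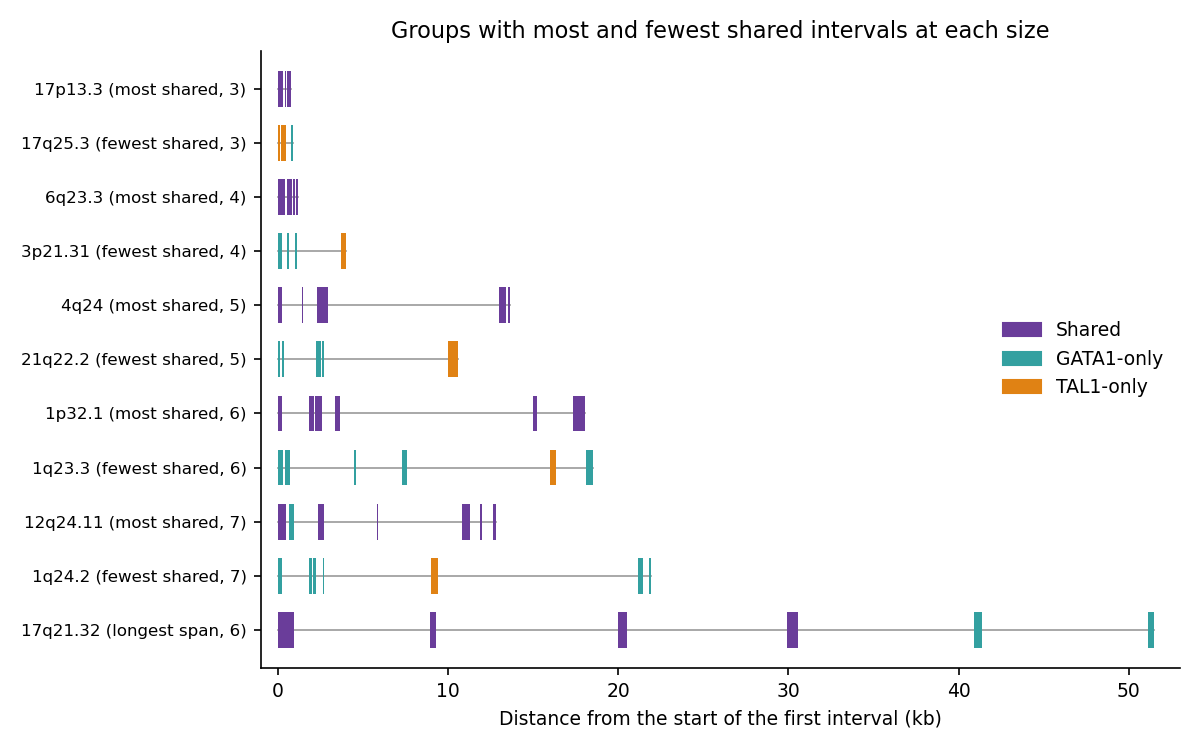
Maps of the groups with the most and the fewest shared intervals at each size from 3 to 7, and of the group with the longest span; the x axis is the distance from the start of the first interval in kb, boxes are intervals to scale, colours give the kind, and labels give the band, the reason for choice and the number of intervals. The groups at 4q24 and 1p32.1 show a long gap of 10099 and 11348 bp between sets of shared intervals, and the evenly spread group at 17q21.32 reaches 51.5 kb.

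The longest and the shortest group both held shared intervals, as did 1503 of all 1618 groups (92.9%). The longest group, at 17q21.32 (chromosome 17, 45266283 to 45317791), spanned 51509 bp with 4 shared intervals of 355 to 909 bp followed by 2 GATA1-only intervals, at gaps of 8012 to 10701 bp. The shortest, at 22q11.22 (chromosome 22, 22651968 to 22652602), placed a GATA1-only, a shared and a TAL1-only interval of 125, 164 and 170 bp in that order within 635 bp, at gaps of 104 and 72 bp. Its intervals covered 72.3% of the span, and here too separate sites cannot be told from pieces of 1 enriched stretch.

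Of the groups with all 3 kinds, the 5 named ones each held 2 TAL1-only intervals. At 9q21.11 (chromosome 9, 71801201 to 71804220) the order was GATA1-only, TAL1-only, TAL1-only, shared, with gaps of 351, 316 and 1380 bp. The same order occurred at 6p11.1 (chromosome 6, 58776519 to 58779278), with gaps of 467, 57 and 41 bp and a last, shared interval of 1162 bp. That group was 1 of 7 groups, with 28 intervals in all, that were centred in a centromeric band. At 11p11.2 (chromosome 11, 46633176 to 46639610) 2 TAL1-only intervals and a shared one lay within 0.601 kb, and 2 GATA1-only intervals followed after 5350 bp. At 7q32.1 (chromosome 7, 128467373 to 128473453) the TAL1-only intervals stood first, 4102 bp apart, and a GATA1-only, a shared and a GATA1-only interval closed the group. The group at 16q24.1 (chromosome 16, 85080481 to 85089455) alternated TAL1-only and shared intervals for 4 places and ended with a GATA1-only interval. No gene is assigned to any group, since no gene annotation of hg19 was used.

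In groups of 3 a single shared interval was found at each of the 3 places in like numbers. The order with 1 shared interval at an end and 2 GATA1-only intervals was the most frequent, in 230 of 785 groups (29.3%), counting an order and its mirror image together. Of 322 groups with 1 shared and 2 GATA1-only intervals, the shared one was in the middle, 1 of 3 places, in 92 (28.6%, 23.7 to 33.8%), first in 109 and last in 121. Taking unshared intervals of either kind, the single shared interval was in the middle in 127 of 415 groups (30.6%, 26.2 to 35.3%). Both 95% intervals include the 33.3% of places that the middle makes up.

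A single GATA1-only interval was between 2 shared ones less often than the 1 place in 3 that the middle makes up. Of 196 groups with 2 shared and 1 GATA1-only intervals, 148 had the shared intervals next to each other and 48 (24.5%, 18.6 to 31.1%) had the GATA1-only interval between them. A TAL1-only interval was in the middle in 15 of 49 groups with 2 shared intervals (30.6%, 18.3 to 45.4%) and in 13 of 54 groups with 2 GATA1-only intervals (24.1%, 13.5 to 37.6%). These smaller sets leave wide intervals that include the 33.3%. Mirror images were of like frequency in the commonest orders, with 109 and 121 groups for 1 shared at an end and 81 and 67 for 2 shared at an end.

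**Figure D2:**
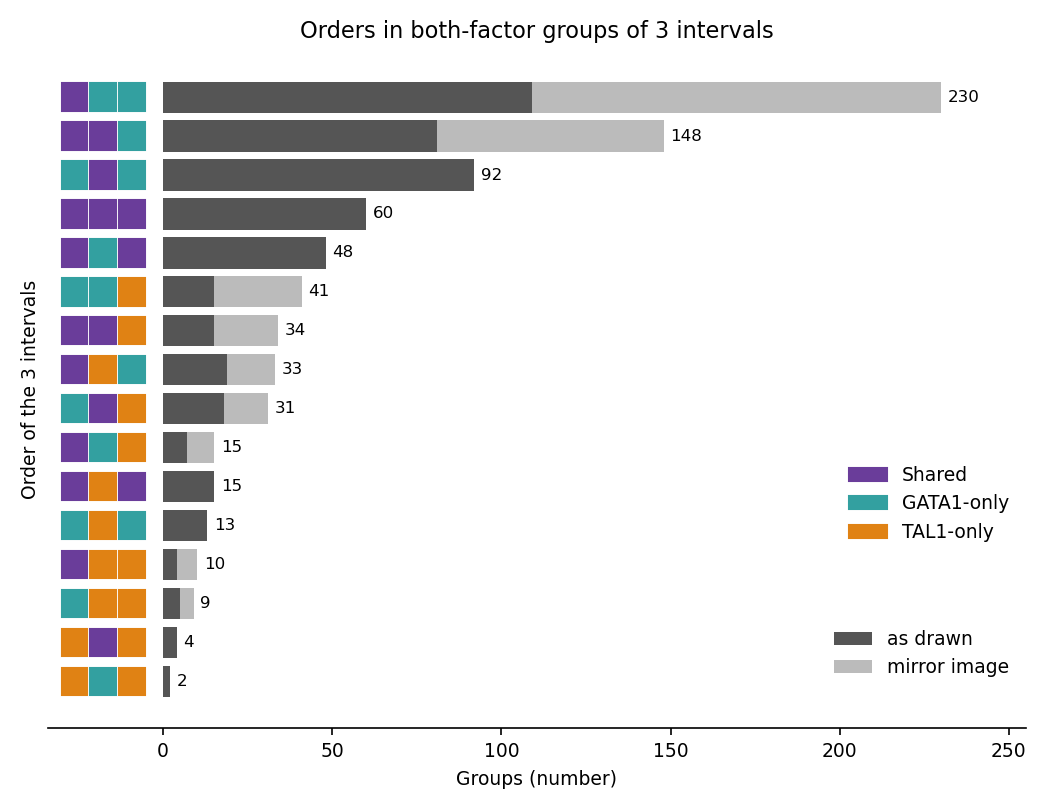
Number of groups of 3 intervals with each order (x axis), where each row of coloured squares is an order, dark bars count it as drawn by genome coordinate and light bars count its mirror image. The order of 1 shared and 2 adjacent GATA1-only intervals leads with 230 groups, and the GATA1-only interval between shared ones has 48.

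The orders of 4 intervals were led by the same forms. Of 442 groups, 81 had 1 shared interval at an end of 3 GATA1-only intervals, 56 had it inside such a row, and 53 had 2 shared followed by 2 GATA1-only intervals. In the 150 groups of 4 with exactly 2 shared intervals these were adjacent in 93 (62%, 53.7 to 69.8%), while 3 of the 6 possible orders place them so. Strict alternation of shared and unshared intervals, which 2 of the 6 orders give, occurred in 42. In the 72 groups with 3 shared intervals the shared ones formed 1 unbroken run in 50 (69.4%, 57.5 to 79.8%), and 2 of 4 orders do. In groups of 5 the shared intervals formed 1 run in 32 of 56 with 2 shared (57.1%, 43.2 to 70.3%, against 4 of 10 orders) and in 27 of 50 with 3 shared (54%, 39.3 to 68.2%, against 3 of 10). Groups of 6 with 2 shared intervals had 1 run in 18 of 36 (50%, 32.9 to 67.1%, against 5 of 15 orders) and those with 3 shared in 8 of 28 (28.6%, 13.2 to 48.7%, against 4 of 20). Groups of 7 with 2 shared intervals had 1 run in 7 of 23 (30.4%, 13.2 to 52.9%, against 6 of 21), and those with 4 shared in 1 of 10 (against 4 of 35). With 4 shared intervals, groups of 5 had 1 run in 15 of 28 (53.6%, 33.9 to 72.5%, against 2 of 5 orders). Groups of 6 with 4 shared had it in 8 of 15 (53.3%, 26.6 to 78.7%, against 3 of 15). The other combinations of 6 and 7 intervals held 6 groups or fewer. The share lay above that of the orders for 7 with 3 shared (2 of 6) and with 5 shared (2 of 6). It lay below for 6 with 5 shared (1 of 4) and 7 with 6 shared (0 of 2).

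Across all sizes, 731 groups held 2 or more shared intervals together with unshared ones. The shared intervals formed 1 run in 446 of them (61.0%, 57.4 to 64.6%), 2 runs in 275 and 3 runs in 10. The share of orders with 1 run, averaged over the make-up of these 731 groups, was 48.5%. With intervals at most 500 bp apart merged to 1 site, a site being shared if it held both factors, the share with 1 run was 56.3%. The share of orders with 1 run was not computed for merged sites, so the 48.5% is no reference for this value. For groups of 4 sites with 2 shared, these were adjacent in 56.0% (46.5 to 65.2%), an interval that includes the 50% of orders. For groups of 3 sites with 2 shared, these were adjacent in 73.7% (67.4 to 79.3%), against 74.3% of the groups before merging and 66.7% of the orders.

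Shared intervals made up a smaller part of the ends than of the inside of longer groups. In groups of 4 to 7 intervals, 37.6% (35.3 to 40.0%) of 1666 end intervals and 43.1% (41.0 to 45.1%) of 2302 inner intervals were shared. GATA1-only intervals made up 55.4% at the ends and 50.1% inside, and TAL1-only intervals 6.96% and 6.86%. The contrast was 29.5% against 40.9% in groups of 6 and 28.8% against 41.4% in groups of 7. It was 40.7% against 42.9% in groups of 4. In groups of 3 the ends had 45.6% and the middle 47.0%, with overlapping intervals.

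**Figure D3:**
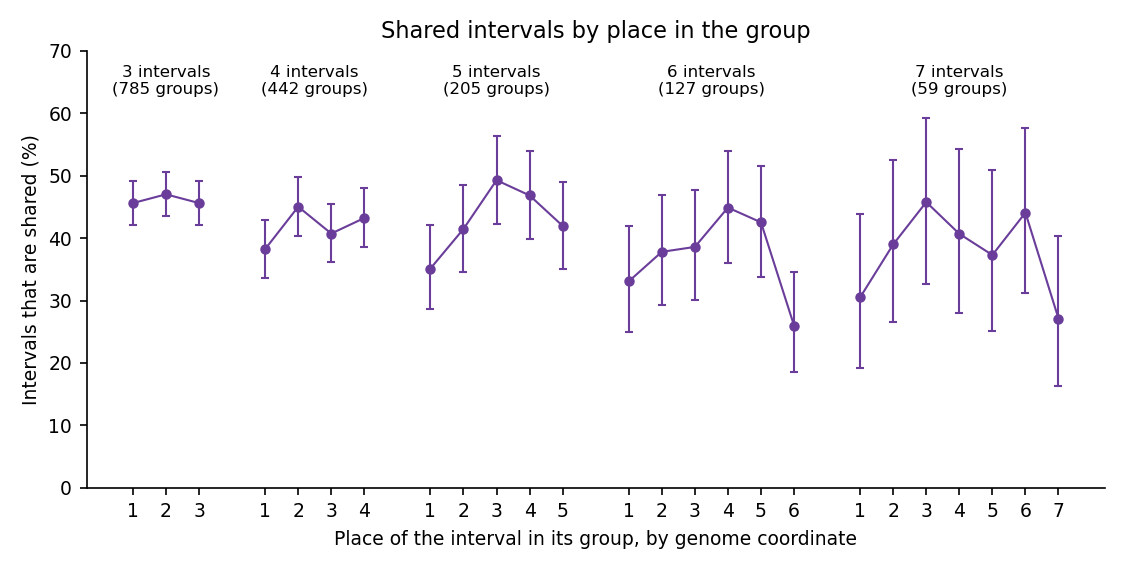
Share of intervals that are shared (y axis, in percent, with exact 95% intervals over groups) at each place of the group from the lower to the higher coordinate (x axis), for groups of 3 to 7 intervals. In groups of 6 and 7 the first and last places lie lowest, at 33.1 and 26.0% for 6 and 30.5 and 27.1% for 7.

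Shared intervals lay closer to each other than to GATA1-only intervals. The 905 gaps between neighbouring shared intervals had a median of 1006 bp (interquartile range 260 to 4126 bp). The 1928 gaps between a shared and a GATA1-only interval had a median of 4006 bp (1206 to 7455 bp), and the 1172 gaps between GATA1-only intervals had one of 2752 bp (507 to 6714 bp). Pairs of like kind were thus closer than the mixed pair, for shared as for GATA1-only intervals. All gaps of the groups together, 4705 in number, ran from 37 to 12485 bp with a median of 2857 bp, and the joining distance sets the upper bound.

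A TAL1-only interval was nearer to a shared than to a GATA1-only neighbour. The 325 gaps between a TAL1-only and a shared interval had a median of 1675 bp (95% interval of the median 1197 to 2081 bp), and the 331 gaps to a GATA1-only interval had one of 4731 bp (4054 to 5515 bp). The 44 gaps between TAL1-only intervals had a median of 415 bp (160 to 1249 bp). Between shared intervals the median of 1006 bp had a 95% interval of 861 to 1237 bp. This overlaps the interval for a TAL1-only beside a shared interval.

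The shorter gap between shared intervals than in the mixed pair of a shared and a GATA1-only interval was also seen at each group size. In groups of 3 the median gap was 878 bp (95% interval 611 to 1268 bp) between shared intervals and 3869 bp (3402 to 4412 bp) in the mixed pair, and in groups of 7 it was 1000 bp (477 to 2738 bp) and 4584 bp (3568 to 5495 bp). The intervals of these 2 medians did not overlap at any of the 5 sizes. Between GATA1-only intervals the median gap of 2000 bp (1435 to 2911 bp) in groups of 3 was also below the mixed pair. In groups of 4, 5, 6 and 7 it was 3611, 2326, 3750 and 2032 bp, each with a 95% interval that overlapped that of the mixed pair. After merging intervals within 500 bp, neighbouring shared sites lay a median of 3131 bp apart (2768 to 3618 bp), shared and GATA1-only sites 4776 bp (4536 to 5033 bp) and GATA1-only sites 4667 bp (4209 to 5078 bp). The short distance between GATA1-only intervals relative to the mixed pair was therefore not seen in sites, while that between shared ones was.

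**Figure D4:**
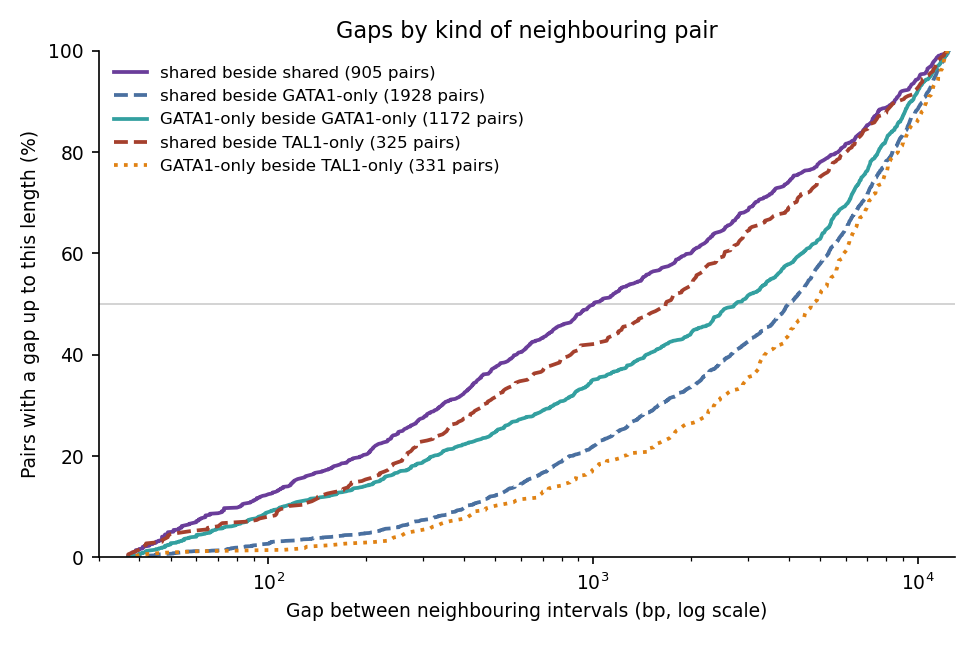
Cumulative share of neighbouring pairs (y axis, in percent) with a gap up to the length on the x axis (bp, log scale), for 5 kinds of pair. The curve of shared pairs crosses the 50% line first, at 1006 bp, and that of GATA1-only beside TAL1-only intervals last, at 4731 bp.

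Within a single group of 3, a pair of adjacent shared intervals was usually the closer pair. This was less clear for 2 GATA1-only intervals beside a shared one. Where 2 adjacent shared intervals were followed or preceded by a GATA1-only interval, the shared pair had the smaller gap in 100 of 148 groups (67.6%, 59.4 to 75%), with a median of 960 bp against 4090 bp. Where 2 adjacent GATA1-only intervals stood beside a shared one, their gap was the smaller in 129 of 230 groups (56.1%, 49.4 to 62.6%), an interval that includes 50%. With a TAL1-only interval as the odd one, the like pair was closer in 25 of 34 groups with 2 shared (73.5%, 55.6 to 87.1%) and in 28 of 41 groups with 2 GATA1-only intervals (68.3%, 51.9 to 81.9%). Since both gaps come from the same group, the size and the place of the group in the genome are shared by the gaps compared.

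The kind of the neighbour went with the distance to it. Among 676 pairs with a shared interval and a gap of at most 500 bp, the other interval was also shared in 50.1% (46.3 to 54.0%). This fell to 29.7% at 500 to 2000 bp, 23.2% at 2000 to 5000 bp and 18.2% (16.0 to 20.6%) beyond. For pairs with a GATA1-only interval, the other was also GATA1-only in 52.0% (47.7 to 56.2%) at gaps of at most 500 bp and in 32.9%, 28.2% and 31.0% in the later classes. The likeness of shared intervals thus went on declining after 500 bp, and that of GATA1-only intervals was between 28.2 and 32.9% from there on.

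TAL1-only intervals had shared neighbours at short range and GATA1-only neighbours at long range. Of 158 pairs with a TAL1-only interval at gaps of at most 500 bp, 102 had a shared partner (64.6%, 56.6 to 72.0%), 33 a GATA1-only partner and 23 a TAL1-only partner. Beyond 5000 bp, 81 of 248 had a shared partner (32.7%, 26.9 to 38.9%) and 159 a GATA1-only partner (64.1%). Over all distances the partners of TAL1-only intervals were shared in 46.4% of 700 pairs and GATA1-only in 47.3%.

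**Figure D5:**
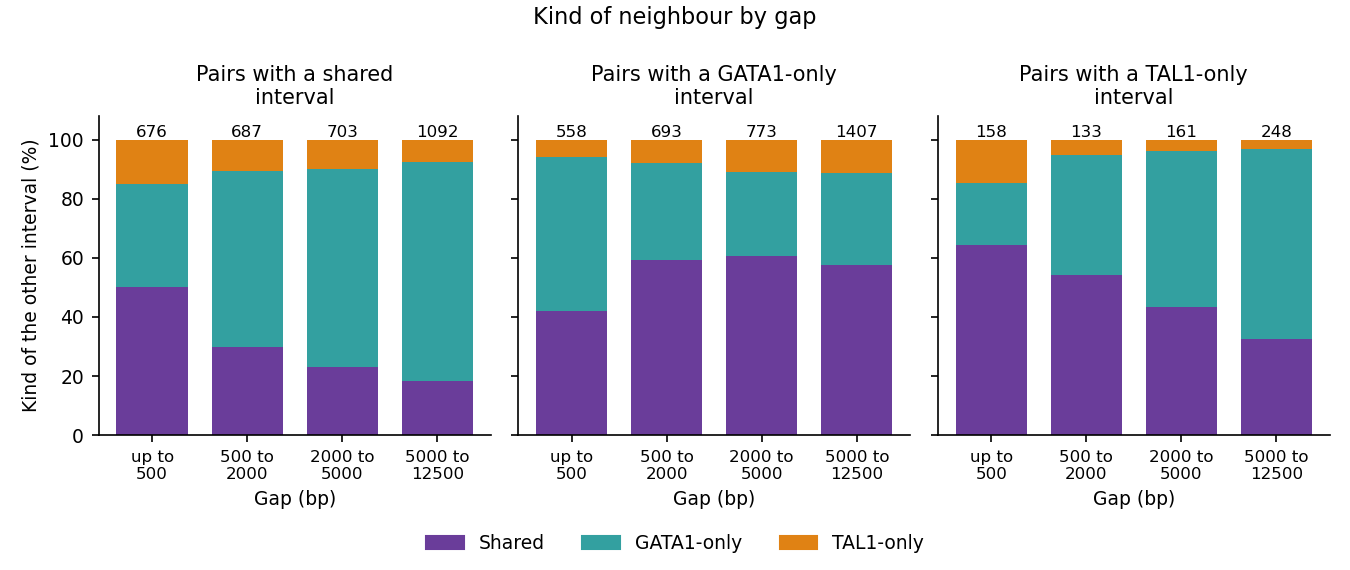
Kind of the other interval (y axis, share of pairs in percent) in neighbouring pairs that hold a shared, a GATA1-only or a TAL1-only interval (panels from left to right), by gap in bp (x axis); numbers above the bars are pairs. The shared part falls from 50.1 to 18.2% in the left panel and from 64.6 to 32.7% in the right panel.

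Over the shortest gaps likeness was greatest. Pairs alike in status, both shared or both unshared, made up 74.6% of the 114 pairs at up to 50 bp, 74.7% of the 198 pairs at 50 to 100 bp and 69.1% of the 123 pairs at 100 to 150 bp. At 450 to 500 bp they made up 56.3% of 71 pairs. Over all 4705 pairs the share was 52.1% (50.7 to 53.6%). In groups of 3 it was 45.9% of 1570 pairs (43.4 to 48.4%). It was 53.5% in groups of 4, 57.1% in groups of 5, 56.1% in groups of 6 and 55.9% in groups of 7. The share that the make-up of the groups alone would give was not computed. The pooled and by-size shares therefore do not show whether neighbours were alike more often than their make-up gives. The number of pairs fell to 82 at 150 to 200 bp and was 103 at 200 to 250 bp and again at 250 to 300 bp. At the limit of the joining distance, 37 of the 75 pairs with gaps of 12004 to 12485 bp were alike (49.3%), and 29 of the 46 pairs with gaps of 12505 to 12998 bp that separated a group from the next interval (63%).

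Gaps of at most 500 bp occurred in many of the groups. In 796 of 1618 groups at least 1 pair of intervals lay this close, and 822 had none. Counted by merged sites, 1247 of the groups (77.1%) still held 3 or more, 319 held 2 and 52 were a single site. The groups at 17p13.3 and 6q23.3 are of this last kind, with gaps of at most 121 bp. In groups of 3, those with the shortest spans (0.635 to 4.39 kb, 197 groups) had 51.6% shared intervals and 31 groups shared throughout. Those with the longest spans (12.4 to 24.5 kb, 196 groups) had 42.7% and 6.

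Shared intervals were wider than the others in the same groups. The median width was 353 bp for shared (interquartile range 247 to 474 bp), 238 bp for GATA1-only (152 to 345 bp) and 246 bp for TAL1-only intervals (164 to 347 bp). In the 322 groups of 3 with 1 shared and 2 GATA1-only intervals, the widest interval was the shared one in 200 (62.1%, 56.6 to 67.4%). The sources used here do not give how the common boundaries of both lists were set, and if peaks of both factors were merged, shared intervals would be wider for that reason alone. This was not tested.

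Width also went with spacing for every kind. Shared intervals with their nearest neighbour at most 500 bp away had a median width of 305 bp (287 to 319 bp), against 441 bp (421 to 460 bp) where it was more than 5000 bp away. The same medians were 201 and 284 bp for GATA1-only and 195 and 314 bp for TAL1-only intervals. At each distance the shared intervals were the widest. Intervals standing alone had median widths of 404 bp for shared, 294 bp for GATA1-only and 307 bp for TAL1-only. Each was above the median of all members of its kind. Only the GATA1-only value was also above that of members more than 5000 bp from a neighbour. In GATA1 groups of 3 to 7 with no TAL1 interval the median width was 241 bp, close to the 238 bp of GATA1-only members.

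Groups with both factors were somewhat longer than those with GATA1 and no TAL1. For 3 intervals the median span was 8.23 kb (interquartile range 4.39 to 12.4 kb) against 7.70 kb (3.30 to 11.4 kb), and for 4 intervals it was 13.3 against 11.6 kb. The ranges overlapped widely. Gaps between GATA1-only neighbours were 2752 bp at the median in the former (95% interval 2345 to 3269 bp) and 2001 bp (1685 to 2357 bp) in the latter. These medians pool all group sizes. In groups of 3 with both factors the median was 2000 bp (1435 to 2911 bp), and for groups with no TAL1 it was not computed by size. Groups of 3 made up 48.5% of the groups with both factors and 70.1% of those with no TAL1. A larger group has more chances to include a TAL1 interval, so this difference in size follows in part from the rule.

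Chromosome 1 held the most groups, 272 with 1082 intervals, followed by chromosome 6 with 154 and chromosome 11 with 100. Per length, chromosome 19 led with 13.2 groups per 10 Mb, and chromosome 1 had 10.9, while chromosome 13 had 0.781 and chromosome X 1.22. Of all intervals on an arm, the share lying in these groups ran from 10.1% on 18q to 35% on 1q, over the 41 arms with at least 100 intervals. Arms of a single chromosome could differ widely, with 30.9% on 18p and 10.1% on 18q, and with 12.8% on 17p and 29.8% on 17q. Intervals numbered 13.4 per Mb on 18p and 3.18 per Mb on 18q, and 6.71 per Mb on 17p and 17.5 per Mb on 17q. Other arms did not follow this order, with a share of 18.9% on 20q at 13.5 per Mb and 27.5% on 5p at 4.49 per Mb. A fixed joining distance can make groups more often where intervals are dense. Whether this accounts for the differences between arms was not tested. Among chromosomes with at least 100 members, the share of intervals in these groups ran from 19.8% on chromosome 20 to 31.5% on chromosome 1. Over the same chromosomes, the share of members that were shared ran from 37.7% on chromosome 15 to 48.7% on chromosome 22.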

How the data were processed

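The peak lists of GATA1 and TAL1 in control K562 cells were used, and the other 10 libraries were not analysed here. The authors deposited each list as chromosome, start and end, with no signal, score or p-value. Trimmomatic, Bowtie2, MACS2, deepTools and build hg19 are named, without versions, per the submitters' processing notes. The sources used here give no thresholds or read depth and do not say whether libraries were pooled. The 4 TAL1 rows on the mitochondrial sequence were left out. All other intervals lay within the hg19 chromosome lengths (GenomeInfoDb 1.38.1). Intervals were pooled, joined and described in Python 3.11.15 with pandas 2.3.3, numpy 2.4.6 and scipy 1.17.1, and figures were drawn with matplotlib 3.10.9. Bands came from circlize 0.4.16 under R 4.3.3. Positions count from 1, and a gap is the number of bases between intervals. Intervals of medians come from order statistics. Grouping was tested on simulated lists with known groups.

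The members and the measures were chosen with earlier results of these data known. Named groups are, for each size, those with the most and the fewest shared intervals (ties by shortest span), the shortest and the longest, and the 5 with all 3 kinds, most TAL1-only intervals and then shortest span, with chromosome 8 left out of this naming, but of no count, by a choice that did not rest on its values. Alternatives were joining at 5 or 25 kb, a minimum width of 200 bp, merging within 500 bp, and counting an interval as shared if the other list lay within 1000 bp. The GRCh38 reference tables were not used, since the lists are in hg19, so no gene or sequence is given.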

Additional observations from a re-analysis of the deposited data

How the results depend on the processing

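No paired analysis was possible because each antibody had 1 library per condition. The 1618 groups became 908 with joining at 5 kb and 977 without intervals under 200 bp. The share of members in both lists, 42.7%, was 49.3% with joining at 5 kb, 39.0% at 25 kb, 48.7% without intervals under 200 bp and 53.6% when an interval within 1000 bp in the other list sufficed. The share of alike pairs, 52.1%, was 50.3% without narrow intervals and 48.2% in merged sites. The median gap between shared intervals, 1006 bp, was 603 bp with joining at 5 kb, 1452 bp at 25 kb, 2635 bp without narrow intervals and 3131 bp in merged sites; a shorter joining distance or merging shifts gaps by construction. Without narrow intervals the difference in median width between shared and GATA1-only members fell from 115 to 71 bp. With values added after the data were seen, merging lowered the share with 1 run of shared intervals from 61.0 to 56.3% and the share of shared partners of TAL1-only intervals from 46.4 to 42.1%, and raised median gaps from 4006 to 4776 bp (shared beside GATA1-only) and from 2752 to 4667 bp (between GATA1-only). The place of a single shared interval among 3 stayed within its interval under the 4 alternatives run on it (31.8 to 33.7% in the middle).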
